A study of Mus musculus with 9 samples.

Results

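The genes described here carry the calcium, calcineurin and NFAT signal of T cells: the transcription factors Nfatc1, Nfatc2, Nfatc3 and Nfat5, the calcineurin catalytic subunits Ppp3ca and Ppp3cb, the calcineurin inhibitors Rcan1 and Cabin1, and the calcium entry genes Stim1 and Orai1. They were chosen by name, with earlier results of these data known, and are 10 of the 41978 genes measured. RNA was sequenced from 9 samples of semi-mature SP4 thymocytes, which are CD4 single-positive cells that have passed positive selection and still meet self-antigen in the medulla. The cells were live CD25- CD69+ CD24+ CD4+ CD8- thymocytes, and 10000 were sorted for each sample. All samples came from Nur77-eGFP BAC Tg mice on a C57BL/6 background, young animals of both sexes with no gene deleted and no treatment. In this line a bacterial artificial chromosome drives enhanced GFP from the regulatory region of Nr4a1 (Nur77), so GFP reports recent TCR signaling, and every group carried the transgene. The groups were the dimmest, middle and brightest gates of GFP, called GFPlo, GFPmed and GFPhi, each holding about 10% of the cells and each sorted in 3 biological replicates. The comparison asks whether the NFAT and calcineurin genes differ between SP4 cells with weak and strong self-reactivity.

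A TCR signal activates phospholipase C gamma, which releases calcium from the endoplasmic reticulum through IP3 receptors. STIM1 senses the emptied store and opens the ORAI1 channel of the plasma membrane, calcium switches on the phosphatase calcineurin, and calcineurin strips phosphate from NFATc proteins, which then enter the nucleus. There NFAT joins AP-1 on cytokine genes, while NFAT without AP-1 is known for genes of anergy and exhaustion. Because the pathway works through phosphate and location, transcript levels say how much of each component is made and not how active it is.

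Upstream sequence is shown for Nfatc2 and Nfatc3, whose GFPhi samples all exceeded the GFPlo samples, and for Rcan1, whose inner start is a textbook target of calcineurin and NFAT. Each window is the 250 bases before a RefSeq start on GRCm38.p6, read 5′ to 3′ on the strand of the gene. Capitals mark the NFAT core, searched as GGAAA and, for the other strand, TTTCC, with overlaps counted. The first is Nfatc2 at chr2:168601658-168601907 on the minus strand, the second Nfatc3 at chr8:106058568-106058817 on the plus strand, and the others are the inner and outer starts of Rcan1 at chr16:92400079-92400328 and chr16:92466170-92466419 on the minus strand.
Nfatc2: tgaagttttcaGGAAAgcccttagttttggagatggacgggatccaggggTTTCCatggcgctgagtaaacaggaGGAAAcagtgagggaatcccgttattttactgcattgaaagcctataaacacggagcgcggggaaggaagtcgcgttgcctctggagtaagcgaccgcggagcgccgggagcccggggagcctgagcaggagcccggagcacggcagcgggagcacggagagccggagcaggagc
Nfatc3: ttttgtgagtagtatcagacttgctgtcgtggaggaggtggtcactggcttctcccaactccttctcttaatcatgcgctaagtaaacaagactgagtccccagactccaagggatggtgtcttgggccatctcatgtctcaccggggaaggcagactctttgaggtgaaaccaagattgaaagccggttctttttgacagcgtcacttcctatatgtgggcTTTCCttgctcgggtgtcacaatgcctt
Rcan1 inner start: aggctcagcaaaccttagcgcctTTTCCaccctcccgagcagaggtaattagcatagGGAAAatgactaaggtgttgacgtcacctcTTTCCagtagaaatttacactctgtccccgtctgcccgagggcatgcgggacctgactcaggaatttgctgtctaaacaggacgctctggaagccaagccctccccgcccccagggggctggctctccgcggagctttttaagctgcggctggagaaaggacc
Rcan1 outer start: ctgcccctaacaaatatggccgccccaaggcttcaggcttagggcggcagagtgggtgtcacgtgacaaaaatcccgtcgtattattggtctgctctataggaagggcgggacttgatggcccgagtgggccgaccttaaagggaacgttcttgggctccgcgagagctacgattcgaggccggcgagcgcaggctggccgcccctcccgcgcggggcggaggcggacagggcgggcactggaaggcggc
The Nfatc2 window shown and the inner Rcan1 window each held 3 cores, the Nfatc3 window shown held 1 and the outer Rcan1 window held 0. Nfatc2 and Nfatc3 each have 1 further RefSeq start, not shown, whose windows held 1 core (chr2:168590366-168590615) and 0 cores (chr8:106059340-106059589). Windows were searched for 8 of the 10 genes, 11 windows in all, of which 6 held a core. No window of Nfatc1 or Ppp3ca was searched. Nfatc1 is therefore not shown, although its GFPhi samples also all exceeded its GFPlo samples. Across 32851 windows of the same length, 55.6% held at least 1 core and 6.39% held 3 or more, so a single core is common. AAGGTCA, a shortened form of the Nr4a monomer element, was searched on both strands. It was in 4.08% of all windows and in 0 of the 11. The full element was not searched. These matches describe letters in a window and not bound sites.

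Depth allowed all 10 genes to be measured. Total reads per sample ran from 7465552 to 14943774, and the genes had between 104 reads (Rcan1) and 3467 reads (Nfatc1) in a sample. As a check of the gates, Nr4a1 stood at 187 to 251 TPM (length-scaled transcript abundance, set to a fixed total per sample) in GFPlo, 351 to 406 in GFPmed and 767 to 917 in GFPhi, in the order of the labels. T lineage markers were high (Cd3e 1022 to 1318 TPM), Cd4 was at 445 to 609 TPM and Cd8a at 5.68 to 18.8 TPM. Among these T lineage and SP4 marker lists, 2 genes moved with the gate between GFPlo and GFPhi: Cd69, a marker of the sort, fell from 375 ± 48.5 to 216 ± 28.7 TPM, and Cd5 rose from 193 ± 16.7 to 592 ± 75.3 TPM (SD, n = 3 each; limma, adjusted p = 0.0142 and 0.000188). No marker gene of another cell type was at 0 in any sample, and the summed TPM of the 4 B cell markers ran from 11.6 to 31.2. Reads of 1419 olfactory and vomeronasal genes, a measure of background, ran from 2153 to 4634 RPM (reads set to a fixed total per sample). Genes at a TPM of at least 1 ran from 23486 to 29902. GFPhi replicate 2 was lowest in both and highest in Nfatc1 and Nfatc2 TPM. GFPhi replicate 1, at 4580 RPM, also exceeded every GFPlo sample for these genes. Treg markers moved with the gate: the summed TPM of the Treg genes Foxp3, Il2ra and Ikzf2 was 8.80 to 9.27 in GFPlo, 9.25 to 11.3 in GFPmed and 37.9 to 46.2 in GFPhi, and all 3 passed the test between GFPhi and GFPlo. The summed TPM of 5 CD8 and double-positive genes went the other way, from 53.8 to 56.7 in GFPlo to 25.3 to 32.4 in GFPhi, with 3 of its 4 tested genes lower (Cd8a, Cd8b1 and Dntt). Epcam, 1 of 2 tested thymic epithelium markers, was also higher in GFPhi, at no more than 9.08 TPM, and no tested B cell, myeloid, erythroid, NKT or gamma-delta marker passed. The part of these shifts, and of the background, in the results below was not tested.

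Between GFPhi and GFPlo, 2 of the 10 genes rose, Nfatc1 and Nfatc3, and none fell. Both rises were under 1 on the log2 scale, and neither passed with replicate number as a block in the model. Across all 30693 genes tested with limma on log2(TPM + 1), 2.38% were higher and 1.51% lower in GFPhi at an adjusted p of at most 0.05, and 1.66% also changed by at least 1 on the log2 scale. Of the 10 genes, 0 met that second, stricter rule. An unadjusted limma p under 0.05 was seen for 3 (Nfatc1, Nfatc2 and Nfatc3). The share of all genes under that unadjusted limit was not counted, and the percentages above do not stand in for it. The median log2 fold change was 0.01 over the 10 genes and -0.09 over all genes. The 8 genes that did not pass lay between -0.27 and 0.43 on the log2 scale, with adjusted p from 0.251 to 0.988.

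**Figure D1:**
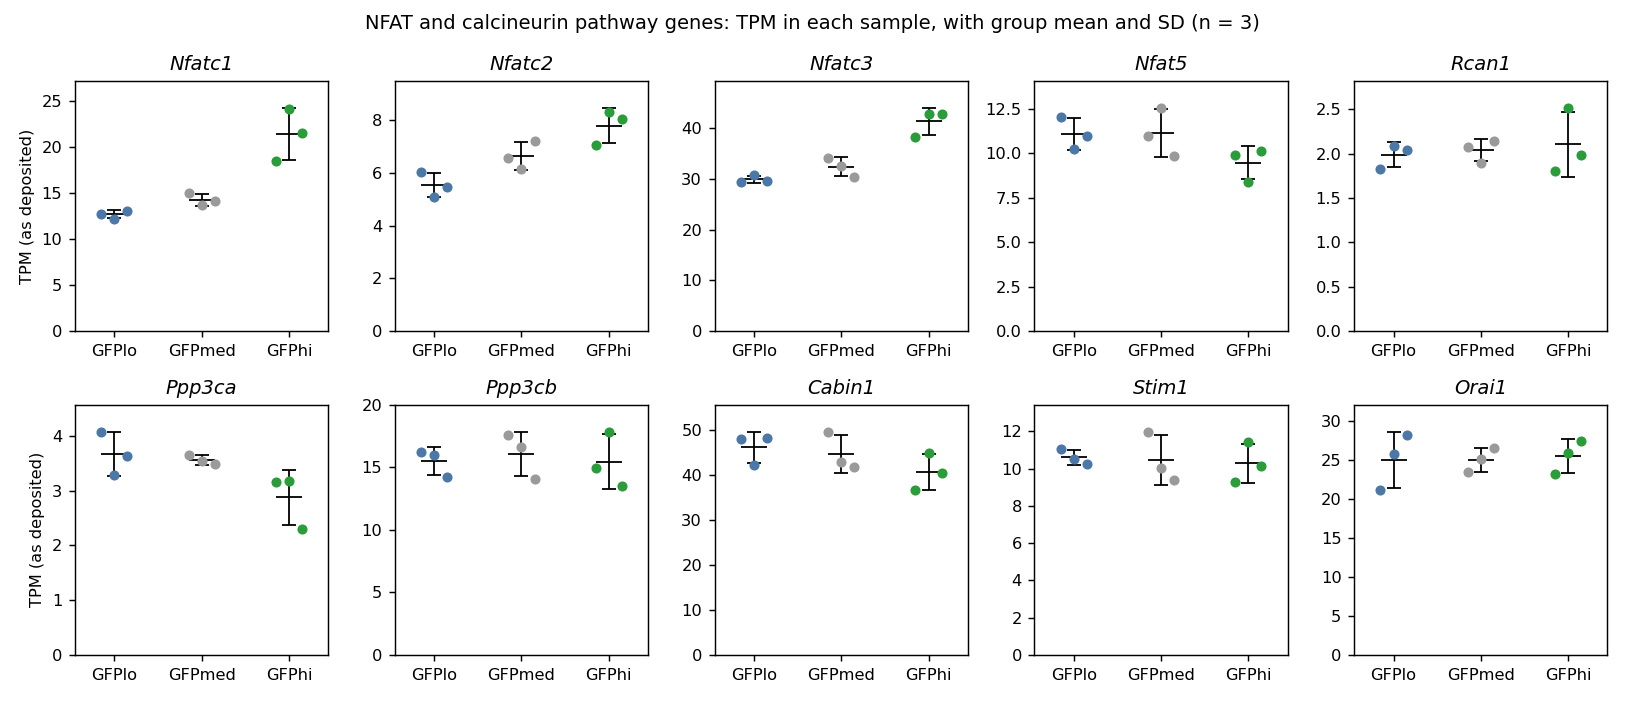
TPM (vertical axis, from 0) of the 10 genes in each of the 9 samples, by GFP gate, with points for samples and black bars for the mean and SD of 3 replicates. For Nfatc1, Nfatc2 and Nfatc3 every GFPhi sample lies above every GFPlo sample, while Ppp3cb, Rcan1, Cabin1, Stim1 and Orai1 overlap.

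Nfatc1 encodes NFATc1 (NFAT2), a family member whose own transcription NFAT is known to raise in stimulated lymphocytes. The gene lies at chr18:80606205-80713071 on the minus strand (GRCm38). Its TPM was 12.8, 12.2 and 13.1 in GFPlo, 15.0, 13.7 and 14.1 in GFPmed, and 18.5, 24.2 and 21.6 in GFPhi. No gate overlapped another, and the GFPhi samples were spread more widely than the rest. The mean went from 12.7 ± 0.445 (SD, n = 3) in GFPlo to 21.4 ± 2.86 (SD, n = 3) in GFPhi, a ratio of 1.69. The log2 fold change was 0.70 with an SE of 0.12 (limma, adjusted p = 0.0202). Over 19 alternatives, 10 with another scaling, filter, length or model and 9 with 1 sample left out, the log2 fold change kept its sign, from 0.615 to 0.850, and its adjusted p ran from 0.00159 to 0.179 and stayed within 0.05 in 10 of them. Leaving out GFPlo replicate 1, 2 or 3 (adjusted p = 0.0591, 0.0885 and 0.0660) or GFPhi replicate 2 or 3 (0.0535 and 0.0827) ended the limma call. So did median-of-ratios scaling (0.179), quantile normalization (0.115), replicate number as a block (0.0591) and a fit of only the 2 gates compared (0.0878).

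Nfatc3, whose product NFATc3 (NFAT4) is known for roles in thymocyte survival and selection, lies at chr8:106058840-106130537 on the plus strand. The TPM was 29.4, 30.7 and 29.5 in GFPlo, 34.1, 32.5 and 30.4 in GFPmed, and 38.2, 42.8 and 42.8 in GFPhi. GFPhi stood clear of both other gates, and the lowest GFPmed sample fell within the GFPlo range. Group means were 29.9 ± 0.722 (SD, n = 3) in GFPlo and 41.3 ± 2.68 (SD, n = 3) in GFPhi. This was a log2 fold change of 0.45 with an SE of 0.084 (limma, adjusted p = 0.0265). The change kept its sign in 19 alternatives, from 0.42 to 0.57, but passed in only 7 of them, with adjusted p from 0.00674 to 0.299. Without GFPlo replicate 1, 2 or 3, GFPmed replicate 2, or GFPhi replicate 2 or 3, it did not pass (0.0781, 0.0864, 0.0964, 0.0595, 0.0763 and 0.106). The call was also lost with median-of-ratios scaling (0.299), quantile normalization (0.0746), eBayes without a trend (0.0942) and replicate number as a block (0.0670). A fit of only the 2 gates compared (0.0878) and voom on solved reads (0.073) lost it too. Of the exonic bases of Nfatc3, 1.87% overlap Esrp2, and the libraries do not keep strand.

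Nfatc2 encodes NFATc2 (NFAT1), abundant in resting peripheral T cells. It lies at chr2:168476410-168601657 on the minus strand. Its TPM was 6.02, 5.11 and 5.48 in GFPlo, 6.55, 6.16 and 7.23 in GFPmed, and 7.04, 8.33 and 8.03 in GFPhi. All GFPmed and GFPhi samples exceeded all GFPlo samples, and 1 GFPmed sample exceeded 1 GFPhi sample. The difference of GFPhi from GFPlo was 0.43 on the log2 scale with an SE of 0.16, and the 95% interval ran from 0.07 to 0.79 (limma, adjusted p = 0.251). That difference did not pass. It passed in 1 of 19 alternatives, with TPM recomputed on exonic length (adjusted p = 0.0432).

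Nfat5 is the relative that lacks the calcineurin-binding region and is known for the response to osmotic stress. It lies at chr8:107293470-107379517 on the plus strand. Its TPM was 12.1, 10.3 and 11.0 in GFPlo, 11.0, 12.6 and 9.86 in GFPmed, and 9.90, 8.40 and 10.2 in GFPhi. The GFPhi samples lay just below the GFPlo samples, and GFPmed overlapped both. GFPhi differed from GFPlo by a log2 fold change that was -0.21 with a 95% interval from -0.55 to 0.13 (limma, adjusted p = 0.647).

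The 3 gates are ordered parts of 1 GFP distribution, so each gene was also tested for an ordered trend by an exact, two-sided Jonckheere-Terpstra permutation test over all arrangements of the samples, whose smallest p is 0.00119. Nfatc1 reached that smallest p, with an adjusted p of 0.0469 over all genes by this exact test. With median-of-ratios scaling its exact p was 0.0214 and the adjusted p 0.339, so that call was lost. The exact p was 0.00357 for Nfatc2 and for Nfatc3, with an adjusted p of 0.0900 for each. Thus 3 of the 10 genes had an exact p of at most 0.05 in the rising direction, against 6.24% of all genes, and 1 of 10 (Ppp3ca) in the falling direction, against 6.53%. Ordering with no overlap between any of the gates was seen for 1 of the 10 genes and for 1.67% of all genes. Rearranging samples only within replicate numbers gave an exact trend p of 0.00926 for each of Nfatc1, Nfatc2 and Nfatc3. That is the smallest p this form can reach, so it does not set Nfatc1 apart. For Ppp3ca the exact p in this form was 0.0556.

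The GFPmed samples show how the step was divided. None of the 10 genes passed between GFPmed and GFPlo (limma, each adjusted p = 1.00; 0 with an unadjusted p under 0.05), where 0.0749% of all genes passed on adjusted p alone and 0.0586% also on fold. None passed between GFPhi and GFPmed either, against 1.51% of all genes on adjusted p alone and 0.691% also on fold. In that comparison 2 genes had an unadjusted limma p under 0.05: Nfatc1 (log2 fold change 0.55, adjusted p = 0.0914) and Nfatc3 (0.34, adjusted p = 0.122). The share of all genes under that unadjusted limit was not counted. With TPM recomputed on exonic length, a setting chosen after seeing the data, 2 of the 10 genes passed between GFPhi and GFPmed. Over all genes 834 passed on adjusted p alone in that setting, against 463 in the main fit. On the log2 scale GFPmed held 0.223 of the distance from GFPlo to GFPhi for Nfatc1, 0.243 for Nfatc3 and 0.528 for Nfatc2. The differences between these shares were not tested.

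**Figure D2:**
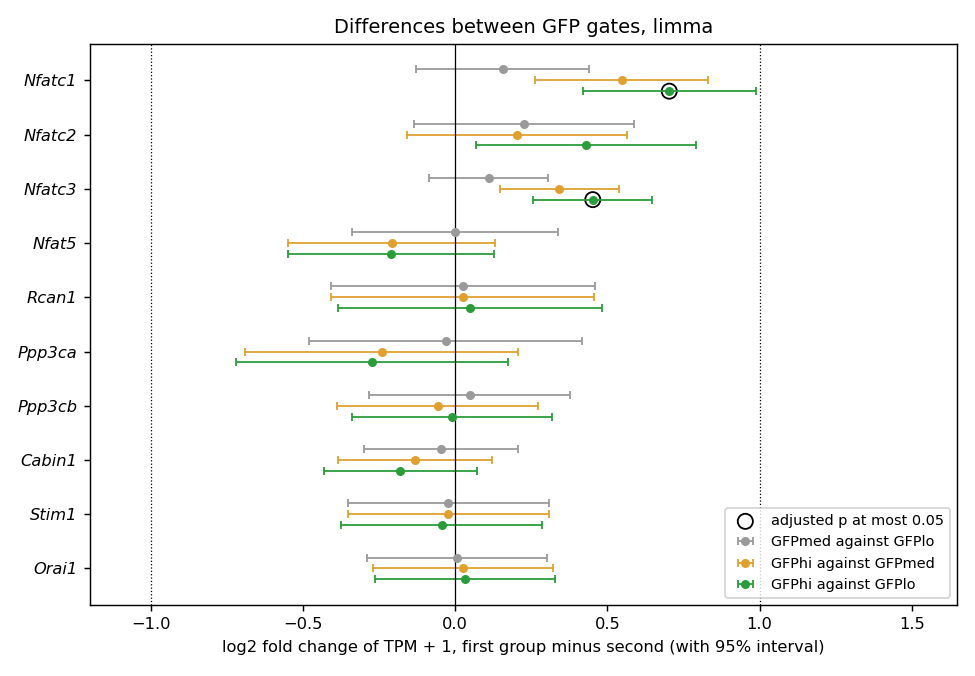
Log2 fold change of TPM + 1 (horizontal axis) of the 10 genes in the 3 pairs of gates, with 95% intervals from limma, dotted lines at -1 and 1, and black rings at an adjusted p of at most 0.05. The rings mark Nfatc1 at 0.70 and Nfatc3 at 0.45, both for GFPhi against GFPlo.

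Neither calcineurin catalytic gene among the 10 passed the test. Ppp3ca encodes the alpha catalytic subunit and lies at chr3:136670124-136937727 on the plus strand. Its TPM was 4.08, 3.29 and 3.63 in GFPlo, 3.65, 3.53 and 3.49 in GFPmed, and 3.16, 3.17 and 2.29 in GFPhi. Every GFPhi sample was below every GFPlo sample, by a small margin. On the log2 scale the fold change was -0.27 with a 95% interval from -0.72 to 0.17 (limma, adjusted p = 0.656). The exact trend p of 0.0417 became 0.328 when adjusted over all genes, and 0.668 with median-of-ratios scaling.

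Ppp3cb encodes the beta catalytic subunit, a main form in lymphocytes, and lies at chr14:20499364-20546573 on the minus strand. It stood at 16.2, 16.0 and 14.3 TPM in GFPlo, 17.6, 16.6 and 14.1 in GFPmed, and 15.0, 17.9 and 13.5 in GFPhi. The gates covered the same range. The log2 fold change was -0.01 with a 95% interval from -0.34 to 0.32 (limma, adjusted p = 0.988), and its sign depended on the setting.

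The third catalytic gene, Ppp3cc, was not among the 10 but completes the enzyme. Its TPM was 1.46, 1.47 and 1.56 in GFPlo, 2.18, 2.21 and 1.89 in GFPmed, and 2.55, 2.53 and 2.53 in GFPhi, from 133 to 383 reads. The gates did not overlap, and the ratio of GFPhi to GFPlo means was 1.70. On log2(TPM + 1), which compresses a gene at this level, the log2 fold change was 0.50 with an SE of 0.17 and did not pass (limma, adjusted p = 0.218). With voom on solved reads it was 0.87 (adjusted p = 0.0135) and with TPM on exonic length 0.73 (adjusted p = 0.00243). These were 2 of its 18 alternatives, and in the other 16 it did not pass.

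Within the summed exonic-length TPM of the 3 catalytic genes, Ppp3cc took 32.4% ± 2.11 (SD, n = 3) in GFPlo, 40.0% ± 0.858 (SD, n = 3) in GFPmed and 47.7% ± 3.71 (SD, n = 3) in GFPhi. The share of Ppp3ca went from 31.4% ± 2.28 to 27.0% ± 1.60 and 21.2% ± 2.37 (SD, n = 3 each). The share of Ppp3cb was 36.2% ± 2.27, 33.1% ± 1.27 and 31.1% ± 2.26 (SD, n = 3 each). These shares compare genes within a sample, so scaling between samples does not enter them, and they are given as a description with no test. The regulatory subunit gene Ppp3r1 was at 27.8 to 32.7 TPM in GFPlo and 28.5 to 32.9 in GFPhi (log2 fold change 0.06, limma adjusted p = 0.885).

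**Figure D3:**
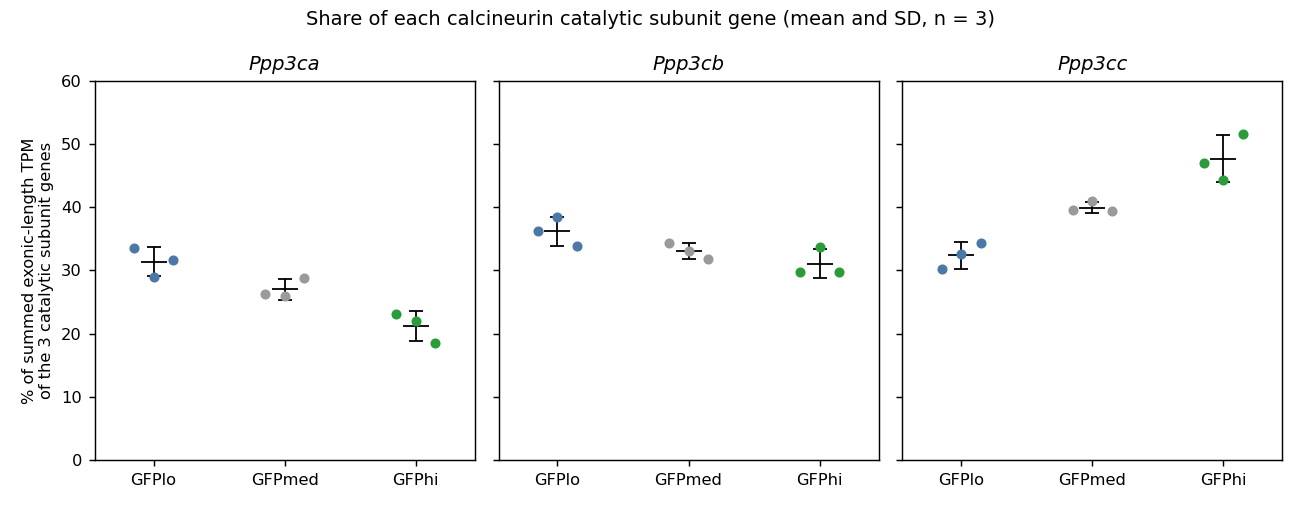
Share (%, from 0) of each calcineurin catalytic gene in the summed exonic-length TPM of Ppp3ca, Ppp3cb and Ppp3cc, by GFP gate, with points for samples and black bars for mean and SD of 3 replicates. Ppp3cc samples run from 30.2% in GFPlo to 51.6% in GFPhi with no overlap between gates, and Ppp3ca runs the other way.

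Rcan1 encodes a protein that binds and inhibits calcineurin and is itself a familiar NFAT target, through the inner start shown above. The gene lies at chr16:92391953-92470867 on the minus strand. Its TPM was 1.83, 2.09 and 2.04 in GFPlo, 2.08, 1.90 and 2.14 in GFPmed, and 1.80, 2.52 and 1.99 in GFPhi. GFPhi held both the lowest and the highest sample. Its log2 fold change was 0.05 with a 95% interval from -0.38 to 0.48 (limma, adjusted p = 0.958). The table gives 1 value per gene, so transcripts from the inner and outer starts could not be separated.

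Cabin1 encodes a large nuclear protein that binds calcineurin and also represses MEF2. It lies at chr10:75646112-75764341 on the minus strand. Its TPM was 48.0, 42.1 and 48.3 in GFPlo, 49.4, 42.9 and 41.6 in GFPmed, and 36.7, 44.8 and 40.4 in GFPhi. The gates overlapped. GFPhi differed from GFPlo by a log2 fold change that was -0.18 with a 95% interval from -0.43 to 0.07 (limma, adjusted p = 0.573). Of the RCAN relatives, Rcan3 was at 40.6 to 42.0 TPM in GFPlo, 47.9 to 54.6 in GFPmed and 42.5 to 45.1 in GFPhi (log2 fold change of GFPhi against GFPlo 0.08, limma adjusted p = 0.744), and Rcan2 had 0 to 9 reads and was not tested.

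Stim1 encodes the calcium sensor of the store and lies at chr7:102267806-102437319 on the plus strand. Its TPM was 11.0, 10.5 and 10.2 in GFPlo, 12.0, 10.0 and 9.41 in GFPmed, and 9.30, 11.4 and 10.1 in GFPhi. These ranges overlapped throughout. On the log2 scale the fold change was -0.04 with a 95% interval from -0.37 to 0.29 (limma, adjusted p = 0.950).

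Orai1 encodes the pore of the store-operated channel and lies at chr5:123015074-123030456 on the plus strand. Its TPM was 21.1, 25.8 and 28.2 in GFPlo, 23.4, 25.1 and 26.6 in GFPmed, and 23.2, 25.9 and 27.4 in GFPhi. The spread within GFPlo was wider than any difference between gates. Its log2 fold change was 0.03 with a 95% interval from -0.26 to 0.33 (limma, adjusted p = 0.960).

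Taking separation of the samples alone, every GFPhi sample was above every GFPlo sample for 3 of the 10 genes (Nfatc1, Nfatc2 and Nfatc3), against 8.26% of all genes. It was below for 2 (Nfat5 and Ppp3ca), against 9.92%, and the other 5 overlapped. With 3 samples against 3, an exact permutation test of a single gene cannot go below 0.1.

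Levels can be compared between genes only per exonic length. On exonic-length TPM, averaged over the 9 samples, the order was Nfatc1 (96.2), Orai1 (93.3), Nfatc3 (67.7), Stim1 (41.1), Cabin1 (38.8), Nfatc2 (28.2), Ppp3cb (22.6), Ppp3ca (17.9), Nfat5 (16.8) and Rcan1 (16.4). Only Nfatc3 and Stim1 were neighbours with no overlap over the 9 samples: the lowest Nfatc3 value was 57.9 and the highest Stim1 value 47.0. All other neighbours in the order overlapped. By gate, the Nfatc1 samples were at 72.9 to 78.5 and the Orai1 samples at 78.4 to 105 in GFPlo, and at 111 to 142 and 86.7 to 102 in GFPhi. Thus they touched in GFPlo, with Orai1 on the higher side, and in GFPhi every Nfatc1 value was above every Orai1 value. Summed over the 3 calcium-regulated NFAT genes, exonic-length TPM was 158 ± 2.83 (SD, n = 3) in GFPlo, 177 ± 5.95 in GFPmed and 241 ± 22.0 in GFPhi. Nfatc1 took 48.0% ± 1.01 of that sum in GFPlo, 48.2% ± 0.447 in GFPmed and 52.7% ± 1.81 in GFPhi (SD, n = 3 each). The sum counts transcripts in a pool of cells, and more cells with NFAT transcripts cannot be told apart from more transcripts per cell.

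The genes whose pattern across the 9 samples was most like that of a called gene were taken by Pearson's r of log2(TPM + 1), among 17362 tested genes with a mean TPM of at least 5. For Nfatc1 they were Itprip (r = 0.996), which encodes a protein that interacts with the IP3 receptor, Git2 (0.991) and Trpc4ap (0.991). For Nfatc3 they were Pmel (0.992), Cd96 (0.989), a receptor of T and NK cells, and Incenp (0.989), a part of the chromosomal passenger complex. Between the 2 called genes themselves r was 0.970. The samples share their gates and their depth scaling, so these values describe likeness and carry no test.

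The wider pathway was read from 3 lists holding 44 further genes, 41 of them tested. Between GFPhi and GFPlo 3 rose and 5 fell at an adjusted p of at most 0.05. By the same rule 2.38% of all genes were higher and 1.51% lower, and each list count below is set beside these shares. The calcineurin list had 1 gene of 9 tested that fell, and its median log2 fold change was 0.02. That gene was Fkbp1a, which encodes FKBP12, the protein through which tacrolimus inhibits calcineurin. Its TPM was 260, 321 and 324 in GFPlo, 207, 229 and 233 in GFPmed, and 96.9, 105 and 99.3 in GFPhi. The gates were fully separated, the log2 fold change was -1.57 with an SE of 0.096 (limma, adjusted p = 0.000188), and it passed in 19 of 19 alternatives. Fkbp1a also fell between GFPhi and GFPmed, with a log2 fold change of -1.14. In the list of NFAT relatives, kinases and transport, 1 of 14 tested genes fell: Xpo1, the export receptor that carries NFAT out of the nucleus, from 95.0 ± 0.806 to 68.4 ± 6.46 TPM (SD, n = 3 each; log2 fold change -0.47, limma adjusted p = 0.0139). It passed in 12 of 19 alternatives. Nfatc4, with 0 to 12 reads, could not be judged.

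Of these 3 lists, calcium entry, stores and export had the most calls, with 3 of 18 tested genes higher and 3 lower, around a median of 0.07. Over all genes 2.38% were higher and 1.51% lower. Orai3, a channel relative of Orai1, was at 5.31, 5.92 and 4.77 TPM in GFPlo, 6.37, 5.47 and 6.04 in GFPmed, and 10.1, 13.2 and 11.5 in GFPhi, from 36 to 126 reads. It rose by 0.99 on the log2 scale (limma, adjusted p = 0.0167) and passed in 11 of 19 alternatives. Orai2, the other relative, was at 42.3 to 49.1 TPM in GFPlo, 41.4 to 43.1 in GFPmed and 23.5 to 33.3 in GFPhi. Its log2 fold change was -0.61 (limma, adjusted p = 0.0498), and it passed in only 3 of 19 alternatives. Stim2, the relative of Stim1, was at 7.66 to 8.64 TPM in GFPlo and 8.57 to 12.8 in GFPhi and did not pass (0.33, limma adjusted p = 0.448).

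The other calls in that list lay upstream and at the store. Itpr1, an IP3 receptor, fell from 18.4 ± 0.959 to 8.98 ± 0.169 TPM (SD, n = 3 each; log2 fold change -0.96, limma adjusted p = 0.00404). Saraf, which slows store-operated entry, fell from 235 ± 5.30 to 138 ± 15.6 TPM (SD, n = 3 each; log2 fold change -0.76, limma adjusted p = 0.00239). Plcg1, the phospholipase C gamma of the TCR pathway, rose from 196 ± 7.34 to 290 ± 17.3 TPM (SD, n = 3 each; log2 fold change 0.56, limma adjusted p = 0.00530). Kcnn4, a calcium-activated potassium channel, rose from 275 ± 16.7 to 385 ± 40.9 TPM (SD, n = 3 each; log2 fold change 0.48, limma adjusted p = 0.0209). With median-of-ratios scaling the list kept 0 higher and 1 lower call. Fkbp1a has processed copies in the genome, so its reads may be divided between copies and its level is uncertain to that extent.

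**Figure D4:**
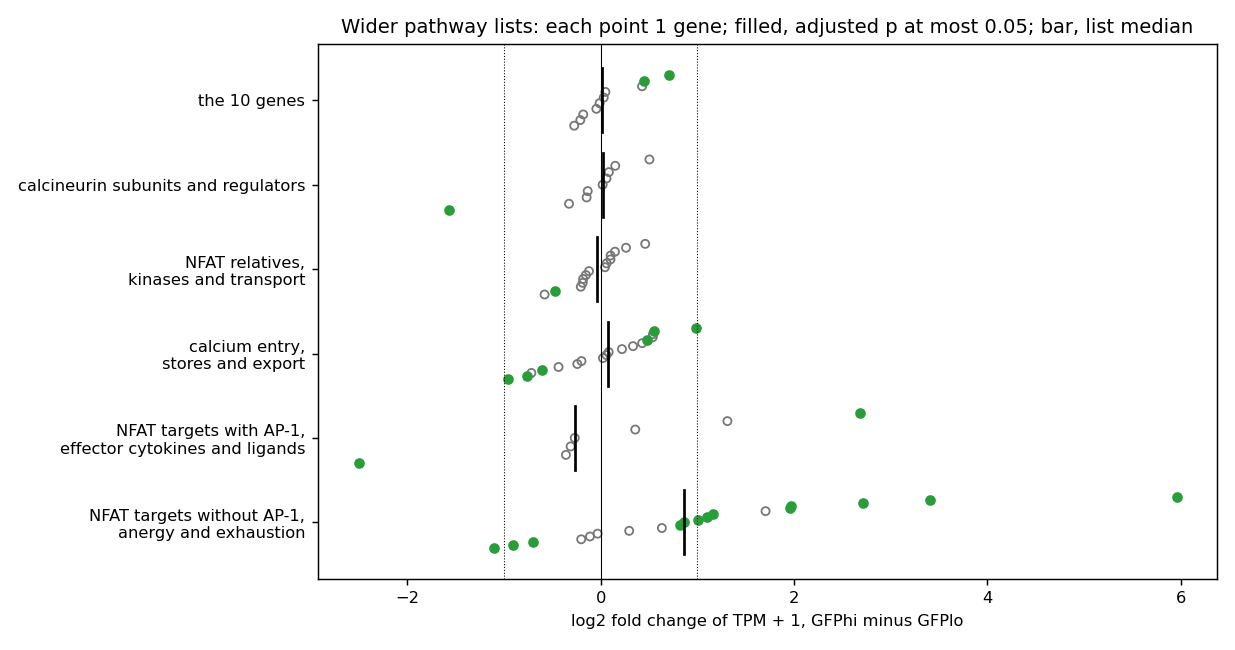
Log2 fold change of TPM + 1 between GFPhi and GFPlo (horizontal axis) of each tested gene in the 10 genes and the wider lists, with filled points at an adjusted p of at most 0.05, a black bar at each list's median and dotted lines at -1 and 1. Among the lists drawn, the medians run from -0.27 (NFAT targets with AP-1) to 0.86 (NFAT targets without AP-1).

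Target genes of NFAT were read from a pair of lists. Of 7 tested targets listed under NFAT with AP-1, effector cytokines and ligands, 1 rose and 1 fell, with a median log2 fold change of -0.27. The shares over all genes were 2.38% higher and 1.51% lower. Whether each of the 7 targets needs AP-1 in these cells was not tested. Il2ra, the IL-2 receptor alpha chain, rose from 0.665 ± 0.0692 to 9.73 ± 1.57 TPM (SD, n = 3 each; log2 fold change 2.68, limma adjusted p = 0.000491). Csf2 fell by 2.50 on the log2 scale (limma, adjusted p = 0.0109), from 7.65, 16.1 and 11.4 TPM in GFPlo to 1.78, 0.454 and 1.49 in GFPhi, on 2 to 63 reads. Il2 did not pass (log2 fold change 0.36, limma adjusted p = 0.778). Fasl, Tnf and Cd40lg did not pass either. Fasl went from 1.24 ± 0.451 to 4.52 ± 0.735 TPM (SD, n = 3 each), on 8 to 66 reads. Tnf went the other way, from 36.7 ± 3.44 to 29.3 ± 1.71 TPM, as did Cd40lg, from 95.3 ± 8.76 to 78.9 ± 6.26 TPM (SD, n = 3 each). Il2ra is also 1 of the 3 Treg markers, and the cells were gated CD25-, the protein it encodes.

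Of 19 tested targets tied to NFAT without AP-1, genes of anergy and exhaustion, 10 rose and 3 fell between GFPhi and GFPlo, where 2.38% of all genes were higher and 1.51% lower. The median log2 fold change was 0.86. Tnfrsf9 (4-1BB), a costimulatory receptor, was at 1.53, 2.69 and 2.29 TPM in GFPlo, 13.0, 11.3 and 14.1 in GFPmed, and 174, 207 and 202 in GFPhi. Its log2 fold change was 5.96 (limma, adjusted p = 6.59e-06). Tnfrsf4 (OX40) followed with 3.41, the inhibitory receptor gene Ctla4 with 2.72, Nr4a3 with 1.97 and Cblb, an E3 ubiquitin ligase of anergy, with 1.16 (limma, adjusted p from 7.74e-06 to 0.00821). Nr4a1, the gene behind the reporter, is among those that rose and was chosen by the gate, and several of the others are high in Treg cells. The list was written with earlier results of these data known, so its count beside that of all genes is a description and no test. The 3 that fell were Egr2, Tox and Tox2, with log2 fold changes of -0.90, -0.70 and -1.10. With median-of-ratios scaling 0 of the list fell at an adjusted p of at most 0.05. Between GFPmed and GFPlo 2 of the 19 passed on adjusted p, both higher, against 0.0749% of all genes. None of the 10 pathway genes passed there.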

How the data were processed

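RNA from 9 samples was made into libraries with SMART-seq v4 and Nextera XT, without strand. Per the study's methods and the submitters' processing notes, the authors trimmed reads, aligned them with STAR 2.7.11b to GRCm38, removed identical duplicates and counted exonic reads. The deposited TPM of a gene used its mean transcript span as length (97.4% of 20096 protein-coding genes). The authors' normalized signal, reads divided by DESeq2 1.34.0 size factors and averaged per group, was also deposited. Their log2 fold changes, p-values and call flags were not used. Reads were solved from TPM and the group signal: 100% of values came out whole within 0.01, for 41578 genes and not for 400. Reads carry no molecular identifiers. Replicates are biological by the labels, which do not name animals, so p-values measure the spread between these samples.

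The 30693 genes reaching a TPM of 1 in 3 or more samples were tested with limma 3.58.1 (R 4.3.3) on log2(TPM + 1), one model over 3 groups, trended eBayes and Benjamini-Hochberg adjustment. The rules were an adjusted p of at most 0.05, alone or with a log2 fold change of at least 1. Fold changes on this scale understate those of low genes. Intervals are 95%, unadjusted. Exonic-length TPM used GENCODE annotation of the same build. The fit was tested on simulated data. From each list every called gene (at most 6, by fold), paralogs and Nr4a1 were named. Cd3e, Cd4, Cd5, Cd69, Cd8a, Epcam, Foxp3, Il2ra and Ikzf2 came from marker lists. Tox, Tox2, Il2, Fasl, Tnf, Cd40lg, Dntt and Cd8b1 were named after their values were seen. Members and lists were chosen with earlier results of these data known. Ifng, some marker genes and 1 further pathway list are not reported here.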

Additional observations from a re-analysis of the deposited data

How the results depend on the processing

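The sign of Nfatc1, Nfatc2 and Nfatc3 between GFPhi and GFPlo was the same in all 19 alternatives. The count of the 10 genes that passed as higher, 2 as reported, was 0 with the replicate block, with quantile normalization, with median-of-ratios scaling or when only the compared pair of gates entered the fit, 1 without a trend in eBayes and with voom on solved reads, and from 0 to 2 when 1 sample was left out. With exonic-length TPM that count was 3. No setting called any of the 10 at the stricter rule between GFPhi and GFPlo, or any as lower. Voom and exonic-length TPM were chosen after seeing the data. Between GFPhi and GFPmed, exonic-length TPM gave 2 of the 10 against 0. The 1 falling trend (Ppp3ca) was 0 with the replicate block and with median-of-ratios scaling, and from 0 to 1 with 1 sample left out.

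Over all genes the calls at adjusted p alone between GFPhi and GFPlo (1194) were 413 with median-of-ratios scaling, 600 with only the 2 groups compared and 599 to 930 with 1 sample left out. The share of higher genes among them was 61.1%, 81.8% with median-of-ratios scaling and 79.1% with voom, against 55.7% with exonic length and 53.0% without GFPhi replicate 2. Between GFPmed and GFPlo (23, or 18 with the fold rule), they were 38 or 29 with a pseudocount of 0.1, 5 or 5 with median-of-ratios scaling, 8 or 8 without a trend, 5 or 5 with the replicate block and 2 to 23 or 2 to 18 with 1 sample left out, and 35 on adjusted p alone with exonic length. Between GFPhi and GFPmed (463, or 212), they were 104 or 102 with median-of-ratios scaling, 358 with the fold rule by voom, 286, 254 and 834 on adjusted p alone with the replicate block, only the 2 groups compared and exonic length, and 170 to 381 or 115 to 209 with 1 sample left out.

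Fold changes near 0 turned sign. Ppp3cb was 0.0703, 0.0144 and 0.0906 on the log2 scale with median-of-ratios scaling, quantile normalization and voom, and -0.114 to 0.0748 with 1 sample left out. Stim1 was 0.0352, 0.0199 and 0.0540 in those settings and -0.116 to 0.0183 with 1 sample left out. With 1 sample left out Rcan1 ran from -0.0442 to 0.119 and Orai1 from -0.0811 to 0.119. The trend turned sign for Cabin1 (exact p = 1.00) and Stim1 (exact p = 0.831) with median-of-ratios scaling, and for Ppp3cb, Rcan1 or Orai1 with 1 sample left out (exact p from 0.611 to 1.00 where the sign turned, and from 0.443 over all fits that left out a sample). For these, the cause was not tested. Same-numbered samples deviated together weakly, with a mean r of 0.0609 over 9 pairs and a range from 0.0122 to 0.225. The 18 other pairs had a mean of -0.0305 and ran from -0.185 to 0.148. Deviations were centred within each gate, which ties these means together, so they cannot decide whether the numbers pair samples. The labels do not say that they do, and the replicate block was kept as an alternative. With the replicate block the adjusted limma p was 0.0591 for Nfatc1 and 0.0670 for Nfatc3. Among the 10 genes, depth limits Rcan1 most (104 to 227 reads).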
